A study of Mus musculus with 6 samples.

Results

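The transcripts of 10 genes that carry the canonical Wnt signal inside the cell were followed in endothelial cells of the mouse cerebellum with and without Frizzled4: the Dishevelled genes Dvl1, Dvl2 and Dvl3, the destruction complex genes Apc, Axin1 and Gsk3b, the beta-catenin gene Ctnnb1, and the Tcf/Lef genes Lef1, Tcf7l1 and Tcf7l2. They were chosen by symbol, as every probe set that the platform annotation gives to 1 of these symbols alone, which gave 28 probe sets for the 10 genes, of 45037 probe sets and 18193 genes in all. Cells were captured with anti-PECAM beads from P16 cerebellum, that is, at postnatal day 16. Fz4-/- mice (Fz4-null) and wild type mice gave 3 preparations each, of mixed sex and a mixed C57Bl6/129 background, and each preparation was read on 1 Affymetrix 3' array. The labels give neither the tissue in which the gene was lost nor whether animals were pooled, so the p-values cover the spread of preparations, which may be partly technical. Values are log2 RMA expression (a normalized, log-scale summary of each probe set), a difference is the Fz4-null mean less the wild type mean. Precision is limited by the number of arrays.

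When a Wnt or Norrin ligand binds a Frizzled receptor and its Lrp co-receptor, Dishevelled proteins are recruited and the destruction complex of Apc, Axin and Gsk3 is inhibited. That complex otherwise marks beta-catenin for degradation. Spared beta-catenin enters the nucleus and acts through Tcf and Lef proteins, which bind DNA, and in brain endothelium this route maintains the blood-brain barrier. Most of this control acts on proteins, whereas the arrays measured RNA.

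Fzd4 itself was lower in every Fz4-null array. Its brightest probe set read 3.04, 4.03 and 4.00 in Fz4-null cells, against 10.80, 10.20 and 10.88 in wild type cells (log2 difference -6.94, SE 0.34, limma adjusted p = 0.00965). The Fz4-null values lay below the array medians, so the size of the difference is not exact. Its dimmer probe sets differed by -4.95 (limma adjusted p = 0.0769) and -1.74 (limma adjusted p = 0.85), and the mean of all by -4.54. With the replicate number as a block the same difference had a limma adjusted p of 0.127, and without null replicate 2 or 3 or wild type replicate 1 or 2 it had one of 0.0691 to 0.169. The 10 endothelial marker genes had a mean level of 11.65 to 11.87 on Fz4-null arrays and 11.56 to 11.62 on wild type arrays. Of the 9 marker lists for other cell types, null replicate 1 held the least of several, with a mean of 5.27 for 8 microglia and macrophage genes and 7.07 for 6 fibroblast genes, where the other 2 Fz4-null arrays read at least 7.69 and 9.13 and the wild type arrays at least 7.74 and 9.71. The mean of 7 choroid plexus genes lay between 5.04 and 5.73 in Fz4-null preparations, against 6.10 to 8.54 in wild type preparations, and that of 7 platelet and red cell genes between 5.34 and 5.71, against 5.96 to 6.20. The part of these cells in the values below was not tested, and fewer cells of a type cannot be told apart from less RNA per cell.

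None of the 10 genes passed the test between the genotypes. Limma called 0 of 28 probe sets at an adjusted p of 0.05 (two-sided), and 0 had an unadjusted p under 0.05, against 4.46% of all probe sets. The lowest unadjusted p was 0.0754. Among all probe sets 5 passed (0.0111%), and by gene 4 of 18193 (0.0220%), while 4.60% of genes had an unadjusted p under 0.05. With the replicate block 0 probe sets passed in the whole table, and 0 to 2 did so when any 1 array was left out. By gene, each read from its brightest probe set, the differences ran from -0.05 to 0.37, with 6 above 0, 3 below and Dvl3 at 0.00, where 51.3% of all genes lay above 0. Their median was 0.03, beside 0.0077 for all genes, and their median size regardless of direction was 0.05 against 0.17 for all genes. That median hides Tcf7l1, Apc, Axin1 and Dvl2, which differed by 0.27 to 0.37. Values for all genes, here and below, were not matched for expression level. Of the 10 genes, only Dvl3 was not above the array median on all 6 arrays.

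The precision of 3 against 3 arrays set what could be seen. The 95% interval of the difference lay inside -1 to 1, that is, within a 2-fold difference either way, for 9 of the 10 genes, against 67.4% of all genes. The exception was Apc, whose interval reached 1.04. Among the 28 probe sets it held for 25. Smaller differences could not be told from none, and a p above the threshold does not show equal levels.

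**Figure D1:**
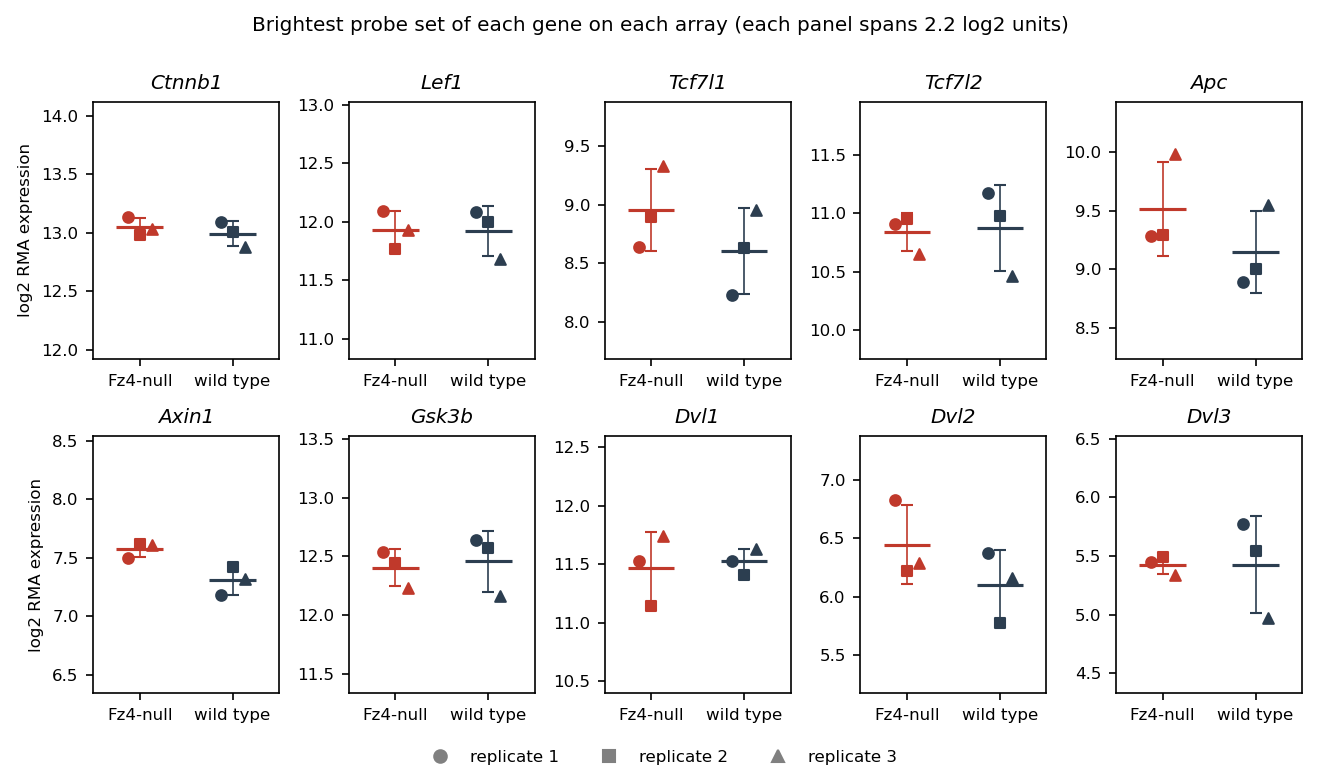
Log2 RMA expression of the brightest probe set of each of the 10 genes on 3 Fz4-null and 3 wild type arrays, with marker shape giving the replicate number, the horizontal line the mean and the bar 1 SD. The groups overlap in 9 panels, and in the Axin1 panel the 3 Fz4-null values (7.50 to 7.62) lie above the wild type values (7.18 to 7.42).

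The Dishevelled proteins pass the signal from the receptor to the destruction complex. The brightest probe set of Dvl1 read 11.53, 11.14 and 11.74 in Fz4-null cells, against 11.53, 11.41 and 11.63 in wild type cells. The lowest and the highest of the 6 values were both Fz4-null, so the groups overlapped fully (difference -0.05, SE 0.21, 95% interval -0.55 to 0.45). Its other probe set differed by 0.15 (SE 0.29).

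Dvl2 was read by a pair of probe sets that pointed in opposite directions. The brighter one gave 6.83, 6.22 and 6.29 in Fz4-null cells, against 6.37, 5.78 and 6.16 in wild type cells. Each Fz4-null array was above the wild type array of the same number, yet the ranges overlapped (difference 0.35, SE 0.25, interval -0.25 to 0.94). The dimmer one, below the array median on all 6 arrays, gave 4.15, 4.00 and 4.32 in Fz4-null cells, against 4.50, 4.31 and 4.59 in wild type cells (difference -0.31, SE 0.18). With both averaged, Dvl2 differed by 0.02. Dvl3 had 1 probe set, which read 5.45, 5.49 and 5.34 in Fz4-null cells, against 5.77, 5.54 and 4.97 in wild type cells. The Fz4-null values lay inside the wild type range, and only 1 of the 6 arrays put the probe set above the array median, so this gene may lie near background (SE of the difference 0.24, interval -0.58 to 0.58).

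In the destruction complex, Axin is the scaffold, Apc binds beta-catenin and Axin, and Gsk3b is a kinase that phosphorylates beta-catenin. Axin1 was the only 1 of the 10 genes whose brightest probe set separated the groups, as did 9.54% of all genes. It read 7.50, 7.62 and 7.61 in Fz4-null cells, against 7.18, 7.42 and 7.32 in wild type cells. The lowest Fz4-null value exceeded the highest wild type value by a small margin, and the difference of 0.27 (SE 0.17, interval -0.13 to 0.66, 1.20-fold) had an unadjusted limma p of 0.151. With an unmoderated statistic, which does not pool variance over probe sets, its unadjusted p was 0.0261. Axin1 was then the only 1 of the 10 genes under 0.05, where 2126 of 45037 probe sets were, and it did not pass the adjusted threshold. The dimmer Axin1 probe set read the other way, at -0.11 (SE 0.28), with overlapping groups, and the mean of both differed by 0.08.

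Apc had 4 probe sets. The brightest read 9.28, 9.29 and 9.98 in Fz4-null cells, against 8.89, 9.00 and 9.55 in wild type cells. Within each replicate number the Fz4-null array was higher, by 0.39, 0.28 and 0.43, while array 3 stood above the other arrays of its genotype in both groups (difference 0.37, SE 0.28, interval -0.30 to 1.04). With the replicate number as a block the unadjusted limma p was 0.0485 and the adjusted p 0.569, the lowest adjusted p of the gene in any alternative. Under that block 8.89% of all genes had an unadjusted p under 0.05, and Apc was 1 of the 10 genes here to do so. The other Apc probe sets did not share the difference, at 0.03 (SE 0.17), -0.07 (SE 0.25) and 0.18 (SE 0.21), and the mean of all 4 differed by 0.13.

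Gsk3b was read by 6 probe sets, of which the 4 brightest lay between -0.06 and -0.01. The brightest read 12.54, 12.44 and 12.23 in Fz4-null cells, against 12.64, 12.57 and 12.16 in wild type cells. The groups overlapped, with array 3 the lowest in each (difference -0.05, SE 0.20, interval -0.54 to 0.43). The dimmest of the 6 stood apart from the rest, with 5.83, 5.39 and 5.95 in Fz4-null cells, against 6.11, 6.05 and 6.32 in wild type cells. All of its Fz4-null values lay below all of its wild type values, and its difference of -0.44 (SE 0.21, interval -0.95 to 0.06) had the lowest unadjusted p among the 28 probe sets without the block, and 0.0380 with it (adjusted p = 0.562). Another dim probe set of the gene read 0.17 (SE 0.21).

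**Figure D2:**
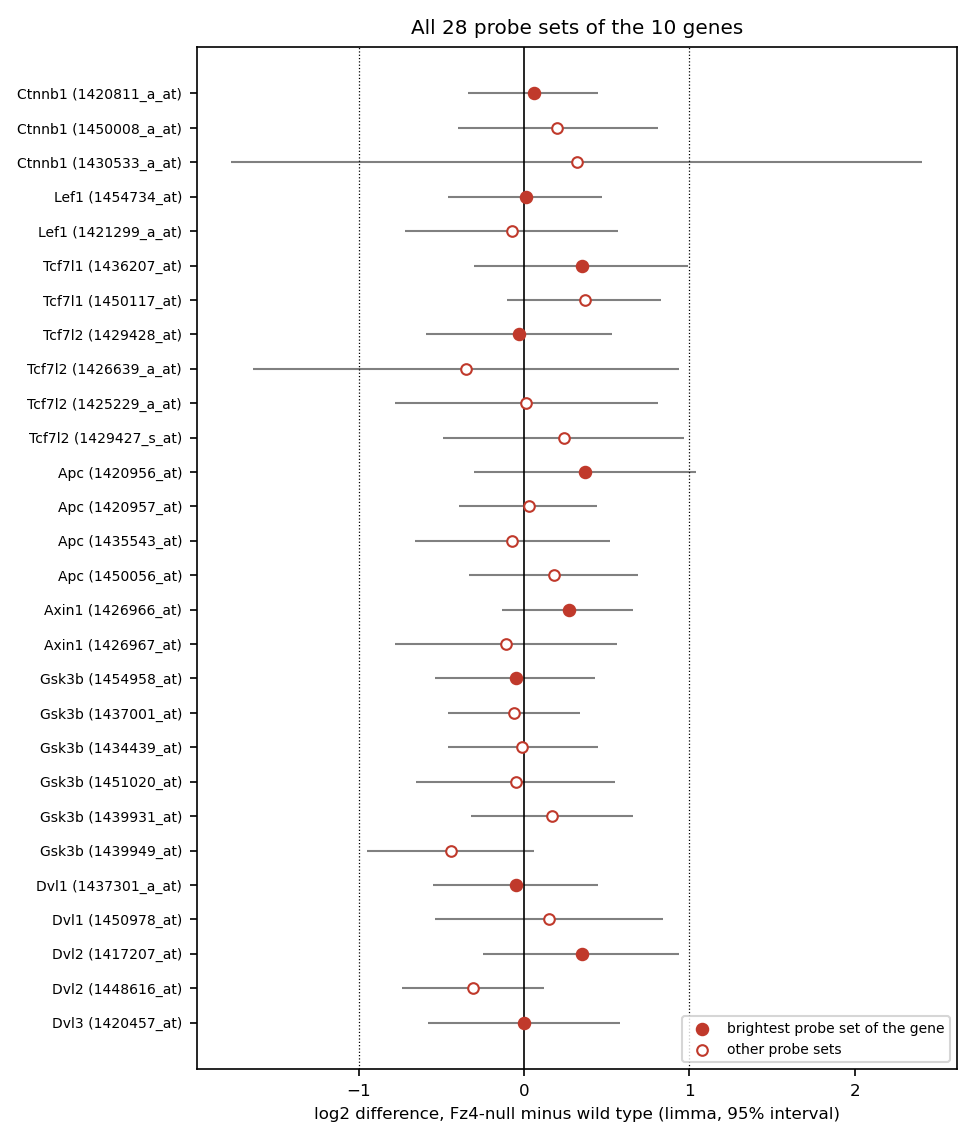
Log2 difference between Fz4-null and wild type arrays (horizontal axis) for all 28 probe sets, with 95% limma intervals from 3 arrays each, filled for the brightest probe set of a gene, and dotted lines at a 2-fold difference. All intervals include 0, and the widest belongs to a Ctnnb1 probe set, from -1.77 to 2.41.

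Beta-catenin is both the carrier of the signal and a structural protein of adherens junctions, where it links cadherins to alpha-catenin. The brightest Ctnnb1 probe set read 13.14, 12.98 and 13.03 in Fz4-null cells, against 13.09, 13.01 and 12.88 in wild type cells. All 6 values lay within a narrow range and the groups overlapped (difference 0.06, SE 0.16, interval -0.34 to 0.45). The next probe set read 12.08, 11.84 and 11.50 in Fz4-null cells, against 11.81, 11.81 and 11.19 in wild type cells, a difference of 0.20 (SE 0.25). The dimmest read 10.74, 10.38 and 8.40 in Fz4-null cells, against 10.28, 10.48 and 7.79 in wild type cells. In both genotypes array 3 was lowest, so its SE of 0.88 exceeded its difference of 0.32.

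The Tcf/Lef proteins bind DNA through an HMG box and recruit beta-catenin to target genes, with Lef1 mainly an activator and Tcf7l1 mainly a repressor. Lef1 is also a Wnt target in many tissues. Its brightest probe set read 12.09, 11.77 and 11.93 in Fz4-null cells, against 12.08, 12.00 and 11.68 in wild type cells. The groups overlapped and their means coincided (difference 0.01, SE 0.19, interval -0.46 to 0.47). The dimmer probe set read 8.03, 7.29 and 7.08 in Fz4-null cells, against 7.48, 7.57 and 7.58 in wild type cells (difference -0.07, SE 0.27), and here the Fz4-null arrays were the more spread (SD 0.50 against 0.05, n = 3 each).

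Tcf7l1 was 1 of 2 genes with several probe sets that all pointed the same way, Ctnnb1 being the other. Its brighter probe set read 8.64, 8.90 and 9.33 in Fz4-null cells, against 8.23, 8.63 and 8.96 in wild type cells. By replicate number the Fz4-null array was higher by 0.42, 0.26 and 0.36, although the group ranges overlapped (difference 0.35, SE 0.27, interval -0.30 to 0.99). The dimmer probe set read 7.28, 7.27 and 7.72 in Fz4-null cells, against 7.00, 7.01 and 7.15 in wild type cells. Its groups did not overlap, and it differed by 0.37 (SE 0.20, interval -0.10 to 0.83), with an unadjusted limma p of 0.102. In all, 3 of the 28 probe sets had groups that did not overlap, 2 higher in Fz4-null cells (Axin1 and Tcf7l1) and 1 lower (Gsk3b). Of all probe sets 9.27% did not overlap, 4.08% higher and 5.18% lower, so the share is near that of the whole table.

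Tcf7l2 was read by 4 probe sets with differences between -0.35 and 0.24. The brightest read 10.91, 10.95 and 10.65 in Fz4-null cells, against 11.17, 10.98 and 10.46 in wild type cells. The Fz4-null values lay inside the wild type range (difference -0.03, SE 0.23, interval -0.59 to 0.53). The next read 8.30, 8.45 and 7.56 in Fz4-null cells, against 9.27, 8.86 and 7.24 in wild type cells. Arrays 1 and 2 were lower in Fz4-null cells and array 3 was higher, which gave a difference of -0.35 (SE 0.54) from all arrays and -0.69 without both arrays numbered 3. The probe set after it differed by 0.01 (SE 0.33) from all arrays and by -0.46 without the arrays numbered 3.

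Lef1 and Tcf7l2 each have more than 1 transcription start in RefSeq, and a start inside the gene can give a protein without the beta-catenin binding end, as is known for human LEF1. The 250 bases before each listed start (RefSeq, GRCm38.p6) were searched on both strands for the Tcf/Lef core motif, CAAAG preceded by 2 bases that are each A or T. It was found in 2 of the 13 windows that were matched for 8 of the 10 genes, namely those of an internal start of Lef1 and of Tcf7l2, and in 14.8% of all 32851 windows. The window of Sp5, a Wnt target gene encoding a transcription factor, is shown with them as an example of a target that was lower on all Fz4-null arrays, and was chosen after its values were seen. The windows of the targets Axin2 and Nkd1, also searched, held no match, and no window was found for the targets Notum and Apcdd1. Sequences run 5′ to 3′ up to the base before the start, with the motif in capitals.
Lef1 (chr3:131156044-131156293, + strand): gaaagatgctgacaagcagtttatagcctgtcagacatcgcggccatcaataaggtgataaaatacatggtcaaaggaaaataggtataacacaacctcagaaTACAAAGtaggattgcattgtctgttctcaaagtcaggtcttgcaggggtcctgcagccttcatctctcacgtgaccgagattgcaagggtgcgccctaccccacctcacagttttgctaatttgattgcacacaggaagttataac
Tcf7l2 (chr19:55895071-55895320, + strand): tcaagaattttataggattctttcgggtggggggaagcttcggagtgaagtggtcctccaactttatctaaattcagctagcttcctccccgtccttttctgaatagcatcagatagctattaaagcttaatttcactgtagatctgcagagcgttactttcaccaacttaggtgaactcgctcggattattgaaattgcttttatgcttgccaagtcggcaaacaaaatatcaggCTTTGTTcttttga
Sp5 (chr2:70474673-70474922, + strand): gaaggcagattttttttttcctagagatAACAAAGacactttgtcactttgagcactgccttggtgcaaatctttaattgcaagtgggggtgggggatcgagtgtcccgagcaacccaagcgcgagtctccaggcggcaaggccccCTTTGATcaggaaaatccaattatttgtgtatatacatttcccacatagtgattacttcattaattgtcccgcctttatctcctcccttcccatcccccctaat
The match begins 147 bases before the start in Lef1 and 14 in Tcf7l2, and Sp5 has 2 matches, at 222 and 104. A match is a run of letters and not a measured binding site. Which start a probe set reads is not annotated, so the disagreement of the Lef1 or Tcf7l2 probe sets was not set against these windows. Sp5 read 5.63, 5.15 and 5.38 in Fz4-null cells, against 6.24, 6.30 and 7.44 in wild type cells, without overlap (difference -1.27, SE 0.35, limma adjusted p = 0.907). It lay above the array median on 4 of the 6 arrays. Nkd1, which had no match, read 7.41, 6.63 and 7.64 in Fz4-null cells, against 8.27, 8.37 and 8.85 in wild type cells. Its groups did not overlap either (difference -1.27, SE 0.31, limma adjusted p = 0.818), and it lay above the array median on all 6 arrays. Whether a match goes with a difference was not tested.

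In many of these probe sets, as in much of the whole table, the arrays numbered 3 stood apart by more than the genotypes did. In 23 of the 28 the array numbered 3 was displaced from the mean of arrays 1 and 2 in the same direction in both genotypes. The matching share of all probe sets was not counted, so whether this number is particular to these genes cannot be said. Over the whole table, the deviations of the arrays numbered 3 from their group means correlated at 0.574. In 16 of the 28 the displacements had the same direction and the smaller of them exceeded the genotype difference, against 43.5% of all probe sets. The dimmest Ctnnb1 probe set was displaced by -2.16 in Fz4-null and -2.59 in wild type cells, the only 1 of the 28 past 1 log2 unit in both, against 4.36% of all probe sets. The brightest probe set of Apc was displaced by 0.70 in Fz4-null and 0.60 in wild type cells, and that of Tcf7l1 by 0.56 and 0.53 in the same order. What sets the arrays numbered 3 apart was not tested. Without both of them, the differences of the brightest probe sets were 0.01 for Ctnnb1, 0.34 for Tcf7l1, 0.34 for Apc, 0.26 for Axin1 and 0.45 for Dvl2. They were -0.11 for Lef1, -0.15 for Tcf7l2, -0.11 for Gsk3b, -0.13 for Dvl1 and -0.19 for Dvl3. The median of the 10 genes was then -0.05.

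**Figure D3:**
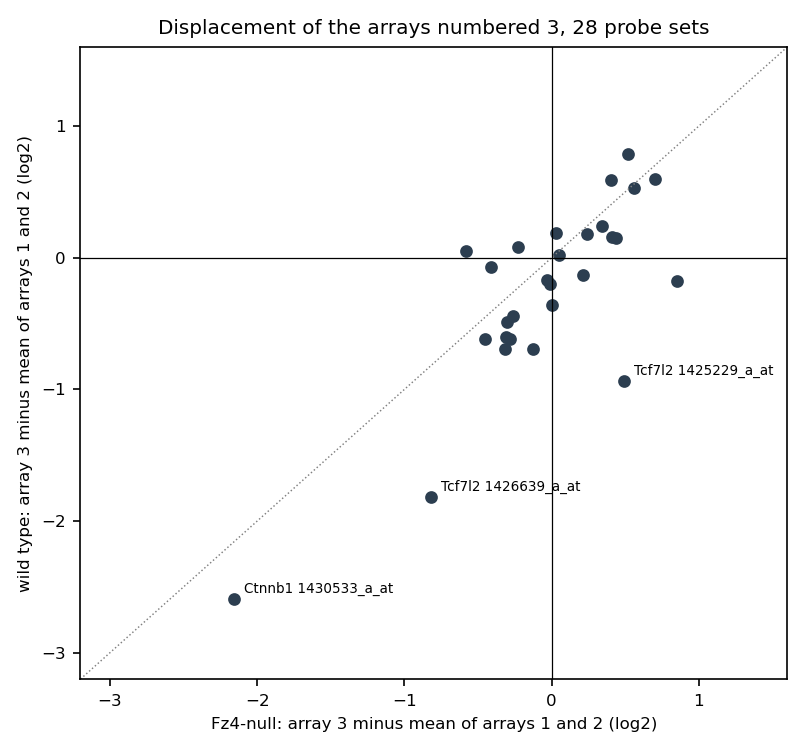
Displacement of the array numbered 3 from the mean of arrays 1 and 2, in log2 units, in Fz4-null (horizontal axis) and wild type cells (vertical axis) for the 28 probe sets, with the dotted line marking equal displacement. Most points lie in the lower left and upper right, where 1 Ctnnb1 probe set reached -2.16 and -2.59.

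The rest of the pathway was read from 5 further lists, by the brightest probe set of each gene. Of 20 other genes of the destruction complex and its enzymes, 0 passed the adjusted threshold in limma and 1 had an unadjusted p under 0.05, where 4.60% of all genes did, with a median difference of 0.03. That gene was Ccdc88c, which encodes a protein that binds Dishevelled. It read 8.74, 8.17 and 7.47 in Fz4-null cells, against 6.94, 7.37 and 6.35 in wild type cells, with no overlap (difference 1.24, SE 0.39, adjusted p = 1), and differed by 0.60 with its probe sets averaged. The Ccdc88c difference became 0.93 on leaving out null replicate 1, or 1.57 on leaving out null replicate 3. Axin2, an Axin that is itself a Wnt target, had the next lowest p and read 10.32, 10.24 and 9.46 in Fz4-null cells, against 10.68, 10.83 and 10.19 in wild type cells (difference -0.56, SE 0.30). It was lower in Fz4-null cells within each replicate number, although the ranges overlapped, and the difference became -0.29 on leaving out null replicate 3, or -0.75 on leaving out wild type replicate 3.

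Of 24 measured nuclear cofactors of beta-catenin 0 passed in limma and 0 had an unadjusted p under 0.05, with a median of 0.08 and a range of -0.35 to 0.60. The lowest p values belonged to Tle2 and Pygo1, both below the array median on all 6 arrays. Tle2, a Groucho-type co-repressor, differed by 0.60 (SE 0.29), with 0.37 on dropping null replicate 3 and 0.84 on dropping null replicate 2. Pygo1, a co-activator of beta-catenin, differed by -0.35 (SE 0.19). The 7 junction partners of beta-catenin had a median of 0.06, with 0 past the threshold and 0 at an unadjusted p under 0.05. Among these, Cdh5, the cadherin of endothelial junctions, differed by 0.44 (SE 0.30), which became 0.21 on leaving out wild type replicate 3, 0.28 on dropping null replicate 1 and 0.68 on dropping null replicate 3, and Vcl, which links junctions to actin, by -0.17 (SE 0.18), with -0.31 for its probe sets averaged, -0.28 on dropping wild type replicate 3 and -0.11 on dropping wild type replicate 1 or 2. Of 15 receptor genes above beta-catenin 1 passed, Fzd4 itself, and the median was -0.05. With Fzd4 counted, 4 had an unadjusted limma p under 0.05, 1 higher and 3 lower in Fz4-null cells, beside 4.60% of all genes. The groups did not overlap for 2 that were higher and 4 that were lower, beside 9.54% of all genes.

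Target and feedback genes lay lower than the transducers. Of 14 measured, 11 were below 0 and 3 above, where 51.3% of all genes lay above 0, with a median of -0.37 beside 0.0077 for all genes. In limma 0 passed the adjusted threshold, and 4 had an unadjusted p under 0.05, 3 of them lower in Fz4-null cells, beside 4.60% of all genes. Notum, a secreted enzyme that inactivates Wnt ligands, read 5.34, 5.51 and 6.15 in Fz4-null cells, against 6.80, 7.17 and 8.36 in wild type cells, with no overlap (difference -1.78, SE 0.44, adjusted p = 0.811). It lay above the array median on 4 of the 6 arrays. The difference became -1.32 on leaving out wild type replicate 3, or -2.1 on leaving out wild type replicate 1. Lgr5, an R-spondin receptor, read 5.18, 4.74 and 5.31 in Fz4-null cells, against 3.99, 4.27 and 3.83 in wild type cells, all below the array medians (difference 1.05, SE 0.23, adjusted p = 0.684), and differed by 0.47 with its probe sets averaged. The list was drawn up with earlier results of these data known, and the difference between it and the 10 transducers was not tested.

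**Figure D4:**
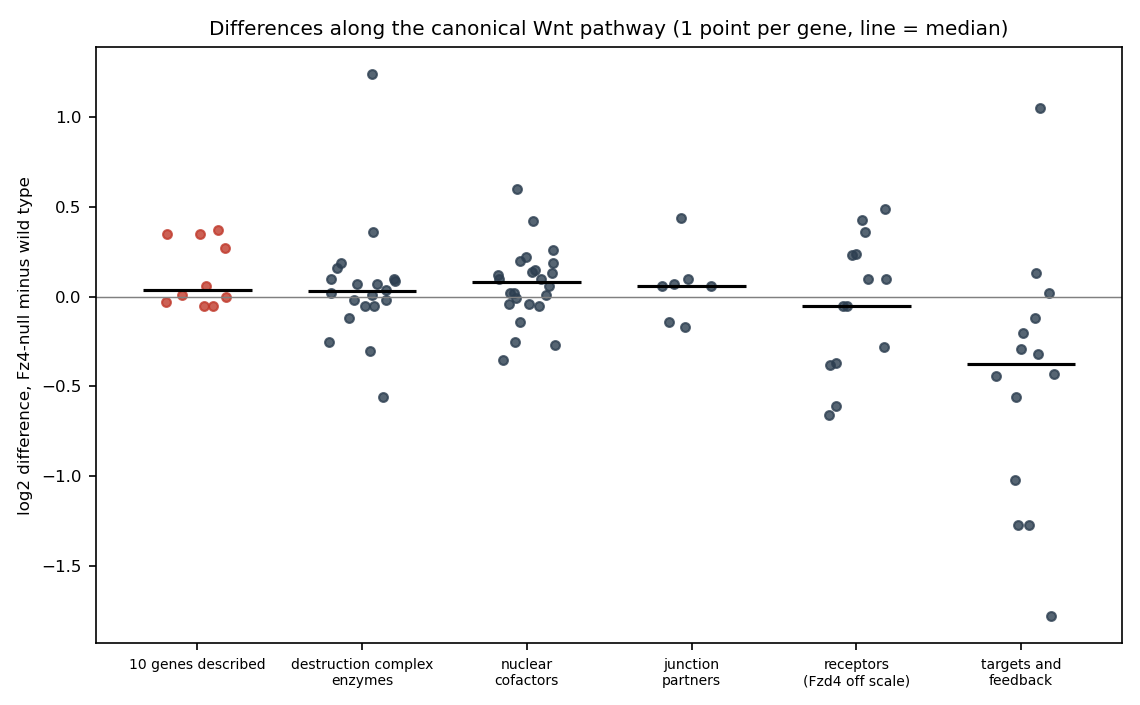
Log2 difference between Fz4-null and wild type arrays (vertical axis) for each gene of the 10 described and of 5 pathway lists, with a line at each list's median and Fzd4 (-6.94) off the scale. The 10 genes lie between -0.05 and 0.37, and the target and feedback genes between -1.78 and 1.05.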

How the data were processed

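The authors deposited log2 values made with RMA (named in the submitters' processing notes, with no version), which shrinks differences of dim probe sets. Of 45101 probe sets, 64 controls were left out. The platform annotation gave 34945 probe sets 1 symbol, 932 several and 9160 none, and 34741 matched RefSeq (GRCm38.p6) by identifier. Each gene was represented by its brightest probe set on average over 6 arrays. The test was limma 3.58.1 under R 4.3.3 (lmFit, eBayes, no covariate, two-sided, Benjamini-Hochberg over 45037 probe sets), tested on simulated data. An exact permutation test, whose smallest p would be 0.1 with 3 arrays a group, was not used. Members and lists were chosen with earlier results of these data known. Named besides members were Fzd4 and, per list, genes past the threshold or else the 2 with the lowest p. Sp5 and Nkd1 were named after their values were seen. Replicate numbers in the labels were checked as pairs: deviations from group means correlated at 0.244, 0.303 and 0.574, above the minimum of 0.1, although unlike numbers reached 0.262, and the block was fitted beside the main design. Alternatives covered normalization, dim probe sets, variance model, array weights, probe set choice, threshold and arrays left out. Figures used matplotlib 3.10.9.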

Additional observations from a re-analysis of the deposited data

How the results depend on the processing

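None of the 10 genes passed the threshold under any alternative run, and the lowest adjusted p by gene was 0.569. Over the whole table, 5 probe sets passed, against 0 with an unmoderated statistic, 21 with array weights, 11 of 18193 genes with probe sets averaged, 8 at an adjusted p of 0.1, 0 without both arrays numbered 3 and 0 to 2 with 1 array left out. With the replicate block, which treats arrays of the same number as pairs although the labels state no pairing, 0 passed. Under that block 3917 had an unadjusted limma p under 0.05 against 2008 without it, and Fzd4 had an adjusted p of 0.127. No other gene named here passed without the block, and none passed with it, so no other call could change. The median of the 10 genes was 0.15 without probe sets ending in _s_at, _x_at or _a_at, which leaves 9 genes. It was 0.00 to 0.14 with 1 array left out, the highest without wild type replicate 1. Below 0, it was -0.02 with array weights and -0.05 without both arrays numbered 3. Differences near 0 changed sign. Lef1 read -0.01 under quantile normalization and cyclic loess, -0.08 with array weights, -0.03 with probe sets averaged and -0.11 without the arrays numbered 3. Dvl1 read 0.15 without the suffixed probe sets and 0.05 with probe sets averaged, and Dvl3 read 0.00 with median centring and 0.01 with cyclic loess. With 1 array left out the ranges were 0.00 to 0.10 for Ctnnb1, -0.11 to 0.09 for Lef1, -0.24 to 0.12 for Tcf7l2, -0.20 to 0.04 for Gsk3b, -0.19 to 0.11 for Dvl1 and -0.23 to 0.17 for Dvl3. Tcf7l1 (0.16 to 0.52), Apc (0.13 to 0.57), Axin1 (0.08 to 0.32) and Dvl2 (0.02 to 0.48) were above 0 under every alternative that kept them. Dim probe sets limit Dvl3, since a filter at the median level removes it, and one at log2 of 100 removes Dvl2 and Dvl3, leaving 8 genes. The cause of these moves was not tested.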
